A study of Mus musculus and Sus scrofa with 30 samples.

Results

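The perilipins, the 5 genes Plin1 to Plin5 whose proteins coat lipid droplets, were followed in 2 kinds of cells driven towards fat. They were taken by gene symbol from the authors' tables of normalized counts, ignoring case, and each symbol matched 1 gene in each table, 5 of 24843 mouse genes and 5 of 34307 pig genes. The mouse cells were 3T3-L1, a fibroblast line from embryos that can be turned into adipocytes. The pig cells were dedifferentiated fat (DFAT) cells from subcutaneous fat, mature fat cells that have gone back to a dividing, fibroblast-like state. RNA was sequenced on day 5 of induction from 5 groups of 3 libraries in each system, 30 libraries in all. The groups received DMSO as the vehicle, dicoumarol (a blood thinner of the coumarin family and an inhibitor of NQO1), magnolol (from the bark of magnolia), dicoumarol together with magnolol (the combination), or rosiglitazone (a drug that activates the receptor PPARγ).

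All 5 groups of a system, vehicle included, shared its induction mix. For 3T3-L1 it held insulin at 0.75 µg/mL, dexamethasone at 75 nM and IBMX at 37.5 µM, in medium with 10% serum. The DFAT mix held biotin at 20 µM, IBMX at 12.5 µM, pantothenate at 10 µM and dexamethasone at 0.5 µM, in medium with 2% serum, and no added insulin is listed for it. No uninduced group was analysed here, so every change below is a change among induced cells. The doses of the compounds, the number of pigs behind the DFAT cells and what separates the replicates of a group were not found in the labels, and the p-values therefore measure only the spread between these libraries.

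Lipid droplets store triacylglycerol behind a single layer of phospholipid, and the perilipins bind to this surface and control which lipases reach the stored fat. Perilipin 1 is the main coat protein of the mature adipocyte: in the resting state it holds back lipolysis, and when protein kinase A phosphorylates it, it releases the activator of adipose triglyceride lipase. Perilipin 4 is also abundant in white fat and coats newly formed droplets. Perilipin 2 (adipophilin) is made in most cells that store lipid and is a known marker of droplets in preadipocytes. Perilipin 3 (TIP47) is present in nearly all cells, is stable in the cytosol and moves onto young droplets. Perilipin 5 is best known from heart, oxidative muscle and brown fat, where it ties droplets to mitochondria. Several perilipin genes are targets of PPARγ, the receptor that rosiglitazone activates.

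The 5 genes did not move as 1 family. Perilipin 1 and perilipin 4 rose in both systems with magnolol, the combination and rosiglitazone, and in DFAT cells with dicoumarol too. In 3T3-L1 cells Plin1 was called with dicoumarol only when the replicate number entered the fit as a block. With rosiglitazone PLIN4 rose 26.7-fold in DFAT cells from a vehicle mean of 204 normalized counts, and Plin4 2.20-fold in 3T3-L1 cells from 7464. Perilipin 2 rose in both systems with the combination and rosiglitazone and in DFAT cells also with magnolol, by at most 3.37-fold. Plin3 fell with rosiglitazone in 3T3-L1 cells, while PLIN3 was not called against vehicle with any treatment in DFAT cells. Perilipin 5 gave at most 3 reads in any 3T3-L1 library and at most 28 in any DFAT library. The tables of the 2 species were normalized separately, so differences between the systems are given side by side and were not tested.

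The counts of perilipins that passed the test stand against those of all genes. A gene is called here when limma's moderated test on log2(normalized count + 1) gives a Benjamini-Hochberg adjusted p under 0.05 over all genes with a mean of at least 10 normalized counts. That minimum left 15723 mouse genes, 4 of the 5 perilipins among them, and 14819 pig genes with all 5 perilipins. PLIN5 passed it narrowly, at a mean of 10.2, and only through the groups where it was high. It is therefore left out of the counts of called perilipins in each comparison and described on its own. In 3T3-L1 cells 0 of the 4 tested perilipins and 0% of all genes were called with dicoumarol (limma, adjusted p); at an unadjusted p under 0.05 the limma counts were 2 perilipins and 393 genes (2.5%), and with the replicate number as a block 1 perilipin, Plin1, was called and 0.502% of all genes. Magnolol changed 2 of 4 (1.23% of all genes), the combination 3 of 4 (5.22%) and rosiglitazone 4 of 4 (40.1%). In DFAT cells dicoumarol changed 2 of PLIN1 to PLIN4 (1.94% of all genes), magnolol 3 of 4 (4.22%), the combination 3 of 4 (10.2%) and rosiglitazone 3 of 4 (10.8%). All of these changes were rises apart from that of Plin3 with rosiglitazone.

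Overlap between the 3 treated and the 3 vehicle libraries gave a second description, with no test. In 3T3-L1 cells all treated libraries lay above all vehicle libraries in 1 of the 4 tested perilipins for dicoumarol (3.15% of all genes), 3 for magnolol (8.52%), 3 for the combination (11.5%) and 3 for rosiglitazone (23.5%). Plin3 lay below vehicle without overlap with magnolol (6.86% of all genes), the combination (9.44%) and rosiglitazone (22.1%). In DFAT cells 3 of PLIN1 to PLIN4 lay above vehicle without overlap for dicoumarol (9.8%), 3 for magnolol (10.9%), 3 for the combination (14.2%) and 3 for rosiglitazone (10.5%), and PLIN3 lay below it for magnolol (11%).

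**Figure D1:**
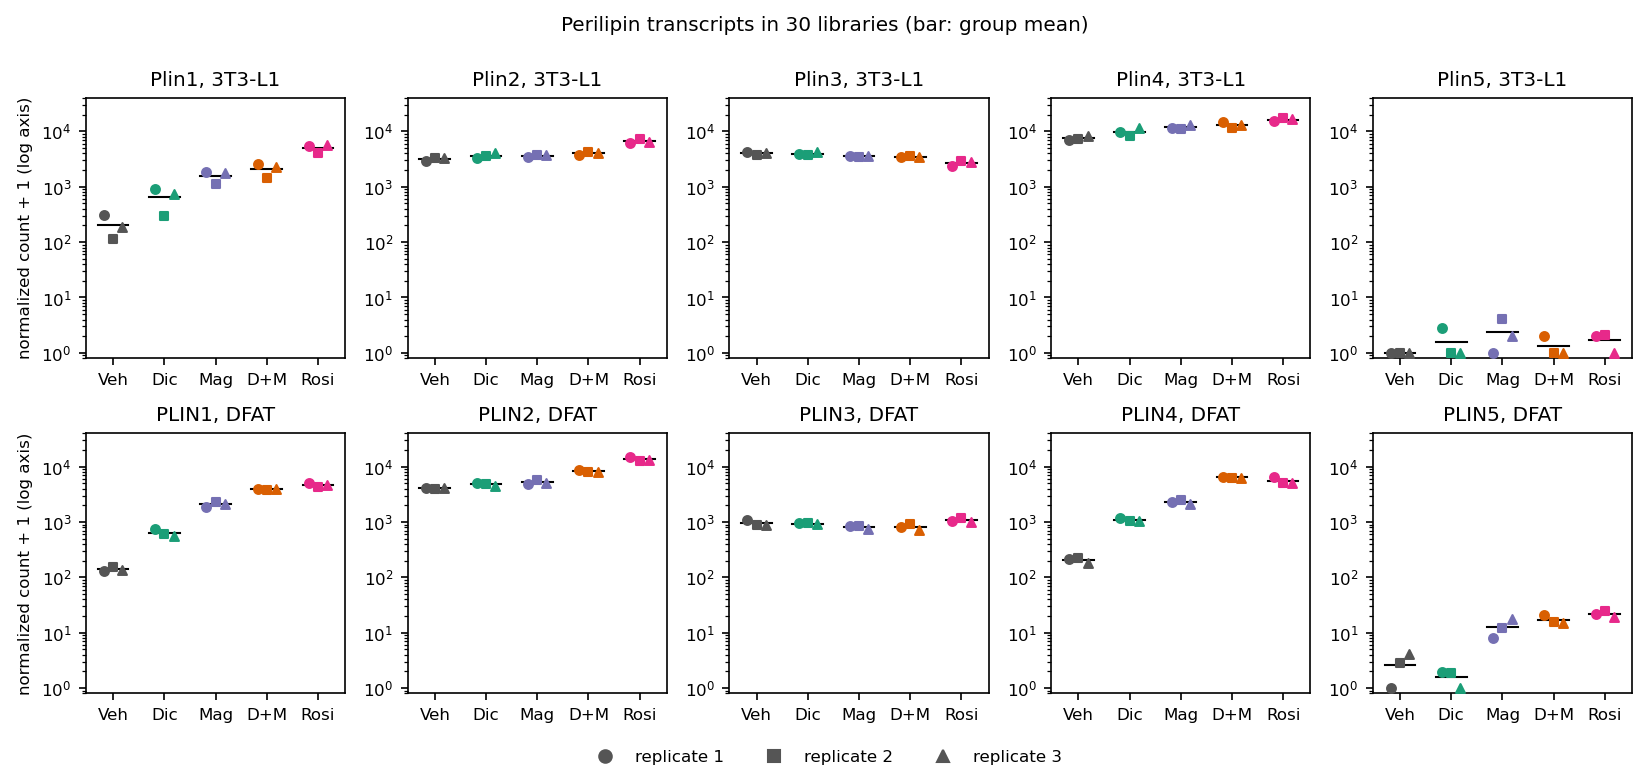
Normalized count plus 1 (log axis) of each perilipin gene (columns) in every 3T3-L1 library (upper row) and DFAT library (lower row), by group (Veh, vehicle; Dic, dicoumarol; Mag, magnolol; D+M, combination; Rosi, rosiglitazone). Circles, squares and triangles are replicates 1, 2 and 3 and the bar is the group mean; perilipin 1 climbs in both rows, Plin4 starts at a mean of 7464 in 3T3-L1 and PLIN4 at 204 in DFAT cells, and Plin5 stays near 0.

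Along their strand Plin3, Plin5 and Plin4 follow each other in the same order in both species. In the coordinates of the authors' tables, mouse Plin1 (ENSMUSG00000030546) spans chromosome 7, 79369966 to 79382651, and Plin2 (ENSMUSG00000028494) chromosome 4, 86566623 to 86588297. The other mouse genes lie together on chromosome 17: Plin4 (ENSMUSG00000002831) at 56407591 to 56416803, Plin5 (ENSMUSG00000011305) at 56418601 to 56424596 and Plin3 (ENSMUSG00000024197) at 56584476 to 56599873. All 5 mouse genes are on the minus strand. In the pig table PLIN1 (ENSSSCG00000001844) spans chromosome 7, 55236348 to 55250797 on the minus strand, and PLIN2 (ENSSSCG00000035863) chromosome 1, 203683862 to 203709273 on the plus strand. PLIN3 (ENSSSCG00000038954) at 73969862 to 73995529, PLIN5 (ENSSSCG00000013513) at 74300619 to 74314315 and PLIN4 (ENSSSCG00000013512) at 74318628 to 74331909 share the plus strand of chromosome 2. Plin4 and Plin5 are neighbours, 1797 bases apart in the mouse and 4312 in the pig, and Plin3 lies 159879 bases from Plin5 in the mouse and 305089 in the pig. All 10 are annotated as protein-coding. Mouse Plin4 overlaps Hdgfl2 on the other strand; the library kit marked strand, the strand setting of the counting was not found in the labels, and Hdgfl2 itself was not called in any comparison with vehicle (log2 fold changes between −0.04 and 0.05).

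The stretch of 250 bases before the start of a gene is shown for the mouse genes that differed most in behaviour: Plin1 and Plin4, which rose, Plin3, which fell with rosiglitazone, and Plin5, next to Plin4 but with almost no reads. The sequences are from RefSeq on GRCm38.p6, whose positions differ from those of the authors' tables, and run 5′ to 3′ on the gene's strand. Capitals mark matches, on either strand, to one of 9 short motifs: the TATA box (TATAAA) and its variant with a final G (TATAAG), the CCAAT box, the GC box (GGGCGG), the core element of nuclear receptor sites (AGGTCA), a direct repeat of that element with a spacing of 1 base (DR1, the form that PPARγ binds with its partner RXR), the C/EBP motif (TTGCNNAA), the E-box (CACGTG) and the cyclic AMP response element (TGACGTCA).
Plin1, chr7:79732777-79733026, minus strand: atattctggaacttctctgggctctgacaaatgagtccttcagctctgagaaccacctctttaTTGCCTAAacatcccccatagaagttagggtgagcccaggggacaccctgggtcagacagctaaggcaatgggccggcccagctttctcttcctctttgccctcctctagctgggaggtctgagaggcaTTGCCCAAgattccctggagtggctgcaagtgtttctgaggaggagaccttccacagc
Plin4, chr17:56109783-56110032, minus strand: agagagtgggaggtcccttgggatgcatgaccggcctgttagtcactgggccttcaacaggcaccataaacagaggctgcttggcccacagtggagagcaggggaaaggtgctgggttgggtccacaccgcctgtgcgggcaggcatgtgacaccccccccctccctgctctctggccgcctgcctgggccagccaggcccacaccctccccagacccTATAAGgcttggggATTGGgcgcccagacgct
Plin3, chr17:56290512-56290761, minus strand: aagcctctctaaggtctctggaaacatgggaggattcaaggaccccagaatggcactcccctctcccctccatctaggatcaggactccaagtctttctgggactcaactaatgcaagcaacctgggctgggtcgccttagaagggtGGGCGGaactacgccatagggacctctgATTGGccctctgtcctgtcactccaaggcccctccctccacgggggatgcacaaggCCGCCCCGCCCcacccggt
Plin5, chr17:56117549-56117798, minus strand: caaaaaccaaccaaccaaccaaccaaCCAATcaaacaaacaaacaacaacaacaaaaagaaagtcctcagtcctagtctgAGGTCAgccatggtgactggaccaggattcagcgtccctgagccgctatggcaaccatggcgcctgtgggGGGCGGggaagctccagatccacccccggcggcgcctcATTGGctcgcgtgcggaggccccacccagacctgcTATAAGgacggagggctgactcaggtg

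The Plin1 stretch held TTGCNNAA at 2 places, from −187 to −180 and from −58 to −51 relative to the start, and none of the other motifs; 9.56% of the 32851 mouse promoters searched held at least 1 such match in a window of the same length. The Plin4 stretch held TATAAG from −32 to −27 and CCAAT, read on the other strand, from −18 to −14. The first start of Plin5 held TATAAG from −27 to −22 as well, beside AGGTCA from −170 to −165, CCAAT at 2 places and GGGCGG from −100 to −95. TATAAG occurred in 6.65% of all promoters, AGGTCA in 14.0%, CCAAT in 33.8% and GGGCGG in 32.7%. The Plin3 stretch held GGGCGG at 3 places, the last 2 sharing a base, and CCAAT on the other strand from −75 to −71. This window (56290512 to 56290761) lies inside the gene's span in the GENCODE annotation of that build, 56277476 to 56292873. Its motifs and GC content are therefore those before the RefSeq start only. The Plin2 stretch, not printed, held AGGTCA on the other strand from −218 to −213 and CCAAT from −73 to −69. The direct repeat was in none of the 6 perilipin windows (0.0335% of all promoters); its absence concerns these 250 bases only. GC content was 54.0% for Plin1, 65.2% for Plin4, 60.0% for Plin3 and 58.0% for the first Plin5 start, against a median of 52.4% over all promoters. A match describes the letters and is not a shown site of binding.

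Plin1 had the lowest level per length of the 4 tested perilipins in vehicle-treated 3T3-L1 cells, and it rose with magnolol, the combination and rosiglitazone. The vehicle libraries (replicates 1, 2 and 3) held 306, 114 and 184 normalized counts and the dicoumarol libraries 892, 296 and 755. Magnolol gave 1828, 1144 and 1807, the combination 2627, 1421 and 2252 and rosiglitazone 5395, 4049.6 and 5702. The rosiglitazone replicates 1 and 3 had 14.3% and 11.6% of their normalized counts on mitochondrial genes, against 5.22% to 7.72% in the other 13 libraries of 3T3-L1 cells. With both left out only replicate 2 remained. Its log2 fold changes against vehicle were 4.44 for Plin1, 1.17 for Plin2, −0.47 for Plin3 and 1.20 for Plin4. A single library shows no spread of its own, so these values are given without a test. For Plin1, every magnolol, combination and rosiglitazone library lay above every vehicle library, while dicoumarol replicate 2 lay below vehicle replicate 1. Replicate 2 was the lowest of its group in 5 of 5 groups. Magnolol raised it 8.35-fold, the combination 10.9-fold and rosiglitazone 26.8-fold (SE of each log2 fold change 0.38). Limma adjusted p was 0.00142, 0.000200 and 3.6e-07 in that order. Dicoumarol gave 3.14-fold, which was not called (limma adjusted p 0.907) but passed once the replicate number entered the fit as a block (limma adjusted p 0.000229; 0.502% of all genes were called in that fit). With bulk RNA, more fat cells in a dish and more Plin1 RNA in each fat cell cannot be told apart.

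The summed level of the adipocyte markers was higher in the groups where Plin1 was higher, though most of that sum was Lpl, at a mean of 44013 with vehicle in 3T3-L1 and 15637 in DFAT cells. Summed over 8 of 8 adipocyte markers, the 3T3-L1 libraries ranged from 43874 to 61299 normalized counts with vehicle, 60379 to 92974 with dicoumarol, 82750 to 124759 with magnolol, 109161 to 168093 with both compounds and 291391 to 520641 with rosiglitazone. The sum of the 6 fibroblast and preadipocyte markers ran the other way, from 141083 to 163049 with vehicle to 80875 to 101816 with rosiglitazone. The single genes of this sum are not given here. In DFAT libraries the 8 adipocyte markers ranged from 18068 to 20999.5 with vehicle and from 69301 to 75830.5 with rosiglitazone, and the 5 of 6 fibroblast markers listed from 1061063 to 1187140.4 and from 843819.8 to 963943. Not all adipocyte markers followed PLIN1: CFD had means of 13.9 with vehicle and 9.71 with rosiglitazone, CEBPA of 458 with vehicle and 364 with dicoumarol, and LEP of 31.8 with the combination and 13.3 with rosiglitazone. With dicoumarol, magnolol and the combination the fibroblast sum was higher than with vehicle, between 1581480.3 and 2142871. COL1A1 made up most of it (a vehicle mean of 1039188), while PDGFRA of the same list had means of 60676 with vehicle and 39631, 47921 and 33300.5 with these treatments. The part of cell number in the perilipin changes was not tested. Markers of other cells were present in part. In 3T3-L1 libraries the 4 of 6 macrophage markers listed summed to at most 269, of which Cd14 was 77.8 to 238 and Cd68 18.5 to 69.2, and the 5 endothelial markers to 6.29 to 29.5. In DFAT libraries the 5 macrophage markers listed summed to 675 to 1039, with CD14 at 619 to 949.6, and the 5 endothelial markers to 149 to 239, with PECAM1 at 149 to 236; ALB of hepatocytes lay at 36.7 to 61.7. DES of muscle had means of 42.8 with vehicle and 139 with the combination. Their part in the perilipin results was not tested. Kdr of endothelium and Itgam of macrophages stayed under 3 counts in all 3T3-L1 libraries, and MYOD1 and MYF5 of muscle, PTPRC of leukocytes and KDR, CDH5 and VWF of endothelium in all DFAT libraries. DLK1, a preadipocyte marker, was also under 3 in every DFAT library.

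PLIN1 rose with all 4 treatments in DFAT cells, and the groups stood in the same order as for mouse Plin1. It stood at 130.2, 155 and 135 normalized counts with vehicle, 736, 597 and 549.6 with dicoumarol and 1872, 2332 and 2144 with magnolol. The combination gave 3969, 3829 and 3909.9 and rosiglitazone 5128, 4331 and 4589. None of the 5 groups overlapped with its neighbour in this order. The fold rises against vehicle were 4.43, 15.0, 27.7 and 33.2 (SE of the log2 fold change 0.10), with limma adjusted p from 1.7e-09 for dicoumarol down to 2.2e-15 for rosiglitazone. The replicates were tighter than in 3T3-L1 cells: the vehicle mean was 140.2 ± 13.1 (SD, n = 3) against 201 ± 97.0 for mouse Plin1.

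Plin4 was the most abundant perilipin per length in 3T3-L1 cells and already high with vehicle. Its vehicle libraries held 6913, 7303 and 8175 normalized counts and its dicoumarol libraries 9635, 8223 and 11724. Magnolol gave 11651, 11228 and 13143, the combination 14911, 11585 and 13274 and rosiglitazone 15189.6, 17121 and 16927. All 12 treated libraries lay above the 3 vehicle libraries, and the dicoumarol, magnolol and combination groups overlapped with their neighbours. Magnolol raised Plin4 1.61-fold, the combination 1.77-fold and rosiglitazone 2.20-fold (limma adjusted p 0.0138, 0.00144 and 5.4e-06). The dicoumarol value was 1.31-fold (95% interval of the log2 fold change 0.12 to 0.66; limma adjusted p 1.00, and 0.147 with the block). Leaving out a single library ended the magnolol call in 4 cases: limma adjusted p was then 0.0613 (vehicle replicate 1), 0.0584 (vehicle replicate 2), 0.0714 (magnolol replicate 1) and 0.0890 (magnolol replicate 3).

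PLIN4 in DFAT cells started low and rose with all 4 treatments. The vehicle libraries held 217, 219 and 177 normalized counts and the dicoumarol libraries 1198, 1061 and 1028. Magnolol gave 2279, 2473 and 2083, the combination 6619.8, 6297 and 6248 and rosiglitazone 6486, 5054 and 4959.9. The combination was the highest group by its mean, 6388 ± 202 against 5499.8 ± 855 with rosiglitazone (SD, n = 3), and these were the only neighbouring groups that overlapped. The rises against vehicle were 5.35-fold, 11.1-fold, 31.2-fold and 26.7-fold in the order of the treatments above, with limma adjusted p of 4.0e-10 or less. The rosiglitazone rise of Plin4 in 3T3-L1 cells was 2.20-fold on the same scale. Rosiglitazone minus combination was −0.23 (log2, 95% interval −0.45 to −0.01), which was not called (limma adjusted p 0.153). The sign held but the difference was called with the replicate block, which pairs these groups (limma adjusted p 0.0351; 24.9% of all genes), and without rosiglitazone replicate 1 (−0.35, limma adjusted p 0.0196).

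Plin2 rose in 3T3-L1 cells with rosiglitazone, and by a smaller amount with the combination. It stood at 2945, 3246 and 3372 normalized counts with vehicle, 3316, 3582 and 4049.8 with dicoumarol and 3451, 3820.3 and 3699 with magnolol. The combination gave 3827, 4326 and 4107 and rosiglitazone 6254, 7148 and 6554. Replicate 1 was the lowest of its group in 5 of 5 groups. The vehicle and dicoumarol groups overlapped, as did the dicoumarol and magnolol groups. Rosiglitazone raised Plin2 2.09-fold (log2 fold change 1.06, SE 0.0917, limma adjusted p 6.1e-07). The combination raised it 1.28-fold (limma adjusted p 0.0322; 0.00146 with the block). That call held without vehicle replicate 3 and was lost in other fits: limma adjusted p rose to 0.127 when vehicle replicate 1 was left out and to 0.0648 for vehicle replicate 2, to 0.0662, 0.108 and 0.0899 for combination replicates 1, 2 and 3, to 0.0607 without the variance trend and to 0.0671 with only the compared groups fitted. Magnolol gave 1.15-fold and dicoumarol 1.14-fold, neither called.

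PLIN2 rose in DFAT cells with magnolol, the combination and rosiglitazone. The vehicle libraries held 4128, 3863 and 4109.8 normalized counts, the dicoumarol libraries 5036, 4793 and 4549 and the magnolol libraries 4927, 5628 and 5159. The combination gave 8766, 8021 and 8027 and rosiglitazone 14666, 12762 and 13392. The dicoumarol and magnolol groups overlapped and all other neighbours were apart. Magnolol raised PLIN2 1.30-fold, the combination 2.05-fold and rosiglitazone 3.37-fold (limma adjusted p 0.00238, 1.3e-08 and 5.3e-12). Dicoumarol gave 1.19-fold with no overlap with vehicle, and was not called (limma adjusted p 0.0763). It was called with only those 2 groups fitted (limma adjusted p 0.0349).

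Plin3 fell with rosiglitazone in 3T3-L1 cells. It stood at 4244, 3729.9 and 4027 normalized counts with vehicle, 3842, 3679 and 4216 with dicoumarol and 3643, 3475 and 3666 with magnolol. The combination gave 3382, 3655 and 3523 and rosiglitazone 2382, 2876 and 2791. All rosiglitazone libraries lay below all others. Plin3 fell to 0.670 of its vehicle level with rosiglitazone (log2 fold change −0.58, SE 0.0872, limma adjusted p 8.9e-05), in a comparison where 19.9% of all genes fell. The magnolol and combination libraries also lay below all vehicle libraries, but the differences of −0.15 and −0.18 on the log2 scale were not called (limma adjusted p 0.620 and 0.299).

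PLIN3 in DFAT cells held 1063, 883 and 892 normalized counts with vehicle, 941, 961 and 910.4 with dicoumarol and 829, 846 and 752 with magnolol. The combination gave 826, 901 and 712 and rosiglitazone 1021, 1191 and 981. The vehicle group overlapped with dicoumarol, the combination and rosiglitazone. Against vehicle the log2 values were −0.01, −0.22, −0.22 and 0.17 (SE 0.0981), none called (limma adjusted p at least 0.177). The 95% interval for rosiglitazone, −0.04 to 0.38, lay above the interval of the 3T3-L1 cells, −0.76 to −0.39; the difference between the systems was not tested.

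Plin5 was close to absent from 3T3-L1 cells. The steps between low values put it at 9 reads over the 15 libraries, with 9 libraries at 0 and at most 3 reads in one, all estimates within 0.02 of a whole read. The 3 vehicle libraries held 0 of 83.4 M reads, which allows up to 0.0360 per M reads. It was under the minimum and not tested. In DFAT cells PLIN5 gave 0, 2 and 3 reads with vehicle and 1, 1 and 0 with dicoumarol. Magnolol gave 7, 12 and 16 reads, the combination 20, 14 and 11, and rosiglitazone 16, 28 and 18. As normalized counts the group means were 1.64 ± 1.54 with vehicle, 11.6 ± 4.94 with magnolol, 16.1 ± 3.09 with both compounds and 20.9 ± 2.84 with rosiglitazone (SD, n = 3). Because the minimum admitted PLIN5 through its high groups, it was tested in a fit with no minimum on the level. There it rose with these 3 treatments, by 2.40, 2.90 and 3.27 on the log2(normalized count + 1) scale (limma adjusted p 0.0230, 0.00313 and 0.000992, with 1.88%, 4.81% and 5.37% of all genes called). At so few reads the size depends on the added count: with 0.1 in place of 1, and the minimum in place, the magnolol value was 3.69 and not called (limma adjusted p 0.0668). With the minimum it was also not called without vehicle replicate 1 (limma adjusted p 0.0654), without magnolol replicate 3 (0.0815) and with only the compared groups fitted (0.0545). Magnolol, combination and rosiglitazone groups overlapped in part, and none of the differences among them was called.

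**Figure D2:**
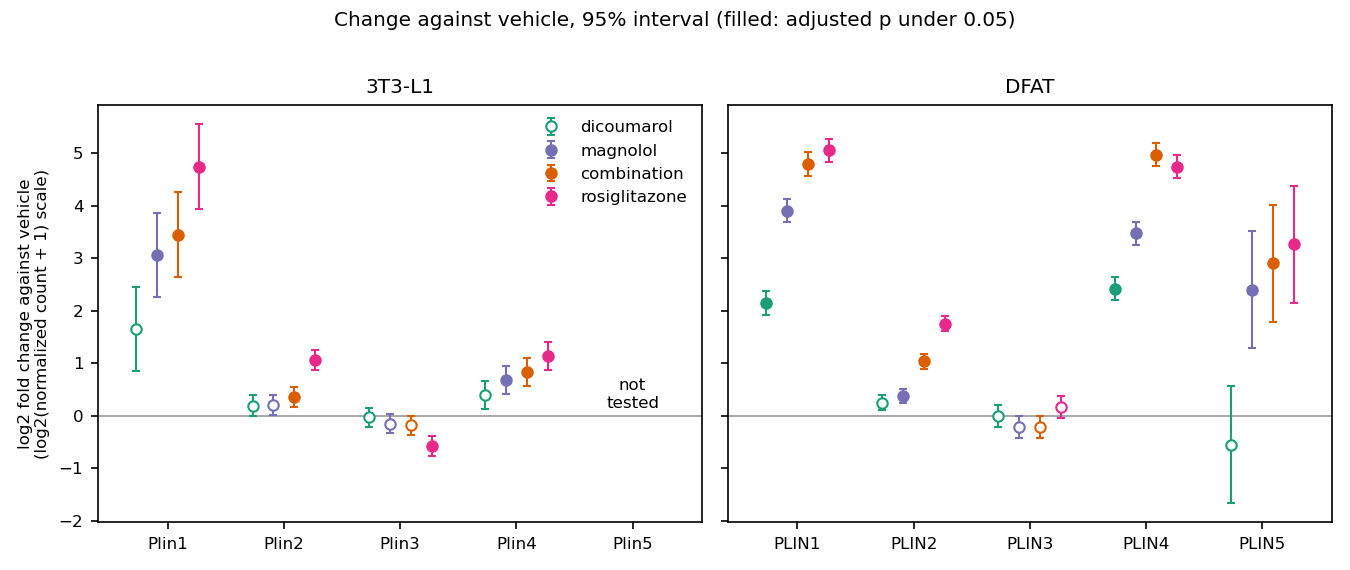
Log2 fold change against vehicle, on the log2(normalized count + 1) scale, of each perilipin in 3T3-L1 (left) and DFAT cells (right), by treatment, with limma's 95% interval. Filled points have an adjusted p under 0.05; PLIN4 reaches 4.97 in DFAT cells where Plin4 stays at or below 1.14 in 3T3-L1 cells, and Plin3 with rosiglitazone is the only called fall; PLIN5 passed the minimum only through the groups where it is high.

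Level differences between genes were compared per length, which the mouse annotation allows. Divided by the summed exon length (GENCODE M21; 4649 bases for Plin1, 3512 for Plin2, 3786 for Plin3 and 5777 for Plin4), the vehicle levels were 1292 ± 112 normalized counts per kb for Plin4, 1057 ± 68.1 for Plin3, 908 ± 62.5 for Plin2 and 43.2 ± 20.9 for Plin1 (SD, n = 3). With rosiglitazone the order was Plin4 (2841 ± 184), Plin2 (1894 ± 129.5), Plin1 (1086 ± 189) and Plin3 (709 ± 69.8). Plin1 stood last with vehicle and above Plin3 with rosiglitazone, with no overlap of mean ± SD. No pig gene lengths were used here, so DFAT genes are not ranked against each other.

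The make-up of the perilipin transcripts is given as a description. As shares of the summed perilipin counts, not corrected for length, Plin1 made up 1.36% ± 0.686 (SD, n = 3) in 3T3-L1 cells with vehicle, 9.04% ± 2.01 with the combination and 16.4% ± 3.00 with rosiglitazone. Plin3 made up 27.0% ± 2.16, 15.4% ± 1.89 and 8.70% ± 0.535, and Plin4 50.2% ± 2.00, 57.6% ± 2.54 and 53.3% ± 1.48. In DFAT cells PLIN2 made up 74.5%, 75.4% and 77.3% in the vehicle libraries, 50.1% ± 0.597 with magnolol, 42.6% ± 0.679 with both compounds and 54.7% ± 1.14 with rosiglitazone. PLIN4 took 3.84% ± 0.473, 21.8% ± 1.24, 32.9% ± 0.153 and 22.0% ± 1.55 in the same order, so its share was highest with the combination. In the treated groups of that order PLIN1 made up 20.2% ± 1.18, 20.1% ± 0.515 and 18.8% ± 0.318. The summed perilipin counts had means of 14853 with vehicle and 30797 with rosiglitazone in 3T3-L1 cells, and of 5326 and 24874 in DFAT cells.

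**Figure D3:**
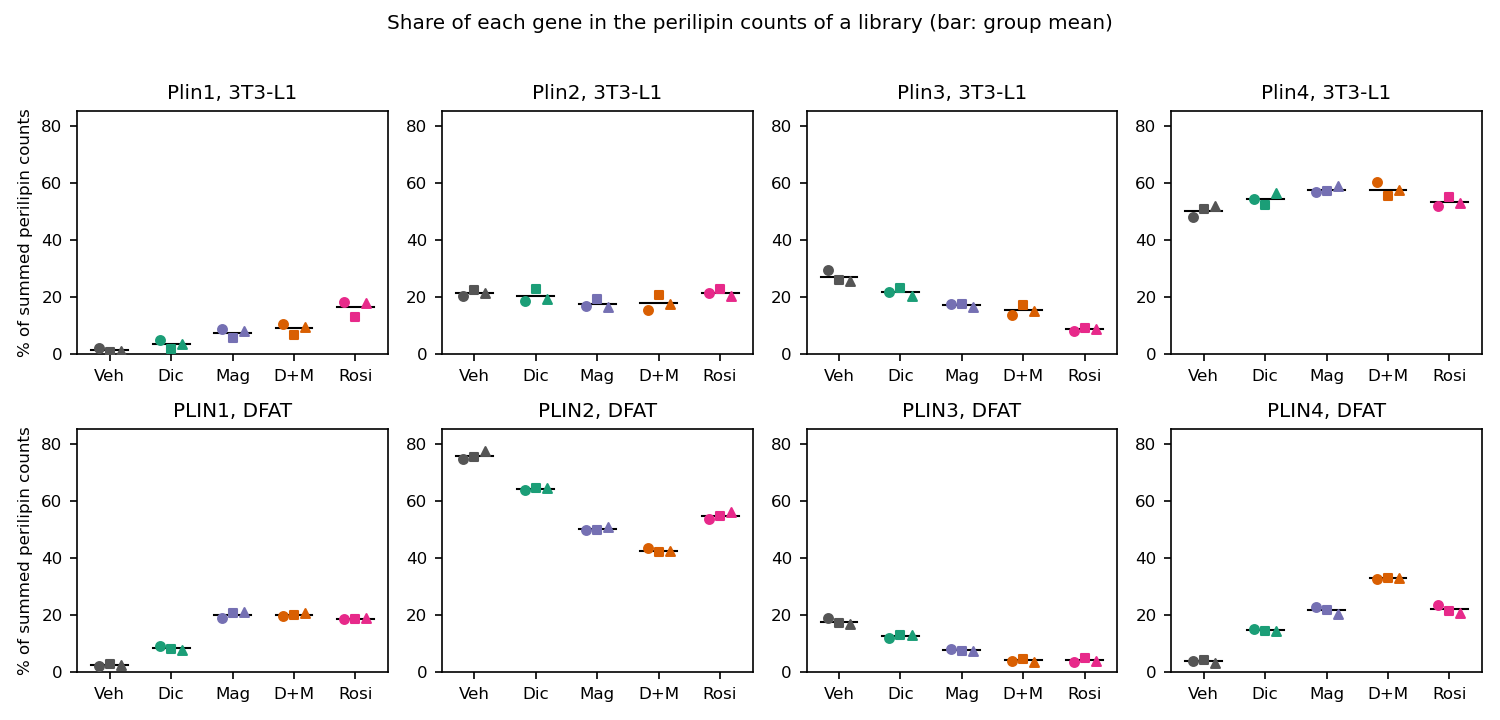
Share (%) of perilipins 1 to 4 in the summed perilipin counts of each 3T3-L1 (upper row) and DFAT library (lower row), by group, with circles, squares and triangles for replicates 1, 2 and 3 and a bar at the mean. In DFAT cells PLIN2 lies at 75.8% with vehicle and 42.6% with the combination, PLIN4 at 3.84% and 32.9%; in 3T3-L1 cells Plin3 lies at 27.0% with vehicle and 8.70% with rosiglitazone.

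Ratios within a library do not depend on its size factor. Relative to perilipin 2, perilipin 1 was higher than with vehicle by 2.86, 3.09 and 3.68 on the log2 scale in 3T3-L1 cells with magnolol, the combination and rosiglitazone, and by 3.53, 3.76 and 3.30 in DFAT cells. Each of these had an exact permutation p of 0.1, the smallest that 3 against 3 libraries can give. The ratio of perilipin 4 to perilipin 2 was higher by 0.49, 0.47 and 0.08 in 3T3-L1 cells and by 3.10, 3.93 and 2.99 in DFAT cells, and of these 6 values only that of 3T3-L1 cells with rosiglitazone overlapped with vehicle (exact permutation p 0.2, two-sided, against 0.1 for the others). The ratio of perilipin 3 to perilipin 2 stood at −1.64 and −1.58 relative to vehicle with rosiglitazone in 3T3-L1 and DFAT cells (exact permutation p 0.1 each).

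The combination was compared with each of its compounds. In 3T3-L1 cells 0 of 4 perilipins were called against dicoumarol alone (0.0254% of all genes; 2 perilipins and 1273 genes at an unadjusted limma p under 0.05) and 0 of 4 against magnolol alone (0% of all genes; 0 perilipins and 336 genes at an unadjusted limma p under 0.05). Plin1 stood 1.80 above dicoumarol on the log2 scale (95% interval 0.99 to 2.60) and Plin4 0.43; with the replicate block both were called (limma adjusted p 2.3e-05 and 0.0238; 3.62% of all genes). Against magnolol the Plin1 interval was −0.42 to 1.19. In DFAT cells 3 of PLIN1 to PLIN4 were higher than with dicoumarol (2.35% of all genes): PLIN1 by 2.65, PLIN2 by 0.79 and PLIN4 by 2.54. The same number were higher than with magnolol (0.621% of all genes), PLIN1 by 0.89, PLIN2 by 0.66 and PLIN4 by 1.49 (limma adjusted p 0.000317, 7.6e-05 and 9.9e-07).

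Magnolol and dicoumarol alone also differed in DFAT cells, in 2 of PLIN1 to PLIN4 (1.57% of all genes). PLIN1 was higher with magnolol by 1.76 and PLIN4 by 1.05 (limma adjusted p 3.8e-08 and 1.9e-05). PLIN2 differed by 0.13 (95% interval −0.01 to 0.27) and was not called. In 3T3-L1 cells 0 of 4 were called (0% of all genes; 2 perilipins and 693 genes at an unadjusted limma p under 0.05); Plin1 was 1.41 higher with magnolol, which passed only with the block (limma adjusted p 0.000944; 0.502% of all genes).

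The interaction term asks whether the combination changed a gene by more or less than the log2 changes of the 2 compounds added up. In DFAT cells 2 of PLIN1 to PLIN4 passed (0.081% of all genes), both with a smaller change than the sum. PLIN4 had a value of −0.93 (SE 0.15, limma adjusted p 0.0168) and PLIN1 a value of −1.26. The PLIN4 call was lost without dicoumarol replicate 1 (limma adjusted p 0.0617), dicoumarol replicate 2 (0.0533), magnolol replicate 2 (0.0570) or combination replicate 2 (0.0658), without the minimum on low values (0.0893) and without the variance trend (0.136). PLIN2 had the opposite sign, 0.41 (95% interval 0.21 to 0.61), and was not called (limma adjusted p 0.282). In 3T3-L1 cells 0 of 4 passed (0% of all genes; 1 perilipin and 78 genes at an unadjusted limma p under 0.05), with Plin1 at −1.27 (95% interval −2.41 to −0.12).

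Rosiglitazone was set against the compounds. In 3T3-L1 cells it differed from the combination in 3 of 4 perilipins (18.3% of all genes) and from magnolol in 4 of 4 (35% of all genes). Against the combination Plin1 was higher by 1.30 and Plin2 by 0.70, and Plin3 was lower, at −0.40 (limma adjusted p 0.0283, 0.000560 and 0.00739). Plin4 was 0.31 higher, called only with the block (limma adjusted p 0.0924, and 0.0252 with it, where 33.3% of all genes were called). The Plin1 call was lost without combination replicates 2 (limma adjusted p 0.108) or 3 (0.0580), without rosiglitazone replicates 1 (0.0990) or 3 (0.0767), and without the variance trend (0.0594). Against magnolol the log2 differences were 1.68 for Plin1, 0.86 for Plin2, −0.43 for Plin3 and 0.45 for Plin4, and leaving out magnolol replicate 2 ended the Plin4 call (limma adjusted p 0.0533). Without the rosiglitazone replicates 1 and 3, which had the high mitochondrial share, only replicate 2 remained. Against the combination the log2 differences were then 0.99 for Plin1 and −0.29 for Plin3. Against magnolol they were 1.38 for Plin1, −0.32 for Plin3 and 0.52 for Plin4. With 1 library left these values, too, are given without a test.

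In DFAT cells rosiglitazone differed from the combination in 2 of PLIN1 to PLIN4 (17% of all genes). PLIN2 was higher by 0.72 (limma adjusted p 1.4e-06) and PLIN3 by 0.39 (limma adjusted p 0.0105; 0.0610 without combination replicate 3 and 0.0577 with only the compared groups fitted). PLIN1 was 0.26 higher (95% interval 0.04 to 0.48) and not called. From magnolol it differed in 4 of 4 (13.1% of all genes), with PLIN1 higher by 1.15, PLIN2 by 1.38, PLIN3 by 0.39 and PLIN4 by 1.26. The PLIN3 call against magnolol (limma adjusted p 0.0123) was lost without rosiglitazone replicate 2 (0.0568) or magnolol replicate 3 (0.0564). The mitochondrial share of DFAT libraries ran from 6.85% in rosiglitazone replicate 2 to 15.1% in combination replicate 3. Its part in these results was not tested.

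Other genes of lipid droplets, a list of 31 lipases, acyltransferases, droplet fusion proteins and their regulators, were counted beside the perilipins; the difference between the systems was not tested. Of the 26 tested in 3T3-L1, magnolol raised 13 (1.07% of all genes rose), the combination 17 (3.86%) and rosiglitazone 21 (20.3%), with 2 lower (19.9% of all genes fell). With dicoumarol 0 were called by limma's adjusted p and 13 had an unadjusted p under 0.05 (0% and 2.5% of all genes), while 10 rose with the replicate block (0.502% of all genes called). The median log2 fold changes were 0.41, 0.93, 1.16 and 1.60 in the order dicoumarol, magnolol, combination, rosiglitazone, beside medians between −0.01 and 0.00 over all tested genes. Cidec, which makes droplets fuse and grow, rose on the log2 scale by 3.98, 4.58 and 6.77 with magnolol, the combination and rosiglitazone. G0s2, an inhibitor of adipose triglyceride lipase, rose by 2.51, 2.95 and 5.01, and Acsl1, which activates fatty acids, by 2.28, 2.59 and 4.12. Rab18, a small GTPase found on droplets, and the dehydrogenase Hsd17b11 fell with rosiglitazone (−0.33 and −0.34, limma adjusted p 0.0203 and 0.0442).

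Of the 24 list genes tested in DFAT cells, dicoumarol raised 2 (0.911% of all genes rose), magnolol 6 (2.96%), the combination 9 (6.11%) with 1 lower (4.06% of all genes fell), and rosiglitazone 13 (5.8%) with 1 lower (5.02% fell). The median log2 fold changes were 0.07, 0.07, 0.15 and 0.34, beside medians between −0.01 and 0.00 over all tested genes. LIPE, the hormone-sensitive lipase that perilipin 1 admits to the droplet, rose on the log2 scale by 1.08, 1.73, 2.62 and 2.86 with dicoumarol, magnolol, the combination and rosiglitazone. CIDEC rose by 0.89, 1.28, 2.10 and 3.26 in the same order, and DGAT2, which makes the last step of triacylglycerol synthesis, by 2.23, 2.80 and 3.24 with magnolol, the combination and rosiglitazone. HSPA8, a constitutive chaperone, was the called fall with the combination and rosiglitazone (−0.20 and −0.27, limma adjusted p 0.0362 and 0.00456). PLIN1 and PLIN4 had larger log2 fold changes than every tested list gene with each of the 4 treatments in DFAT cells, while in 3T3-L1 cells that of Cidec was larger than that of Plin1 with magnolol, the combination and rosiglitazone; these differences were not tested.

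**Figure D4:**
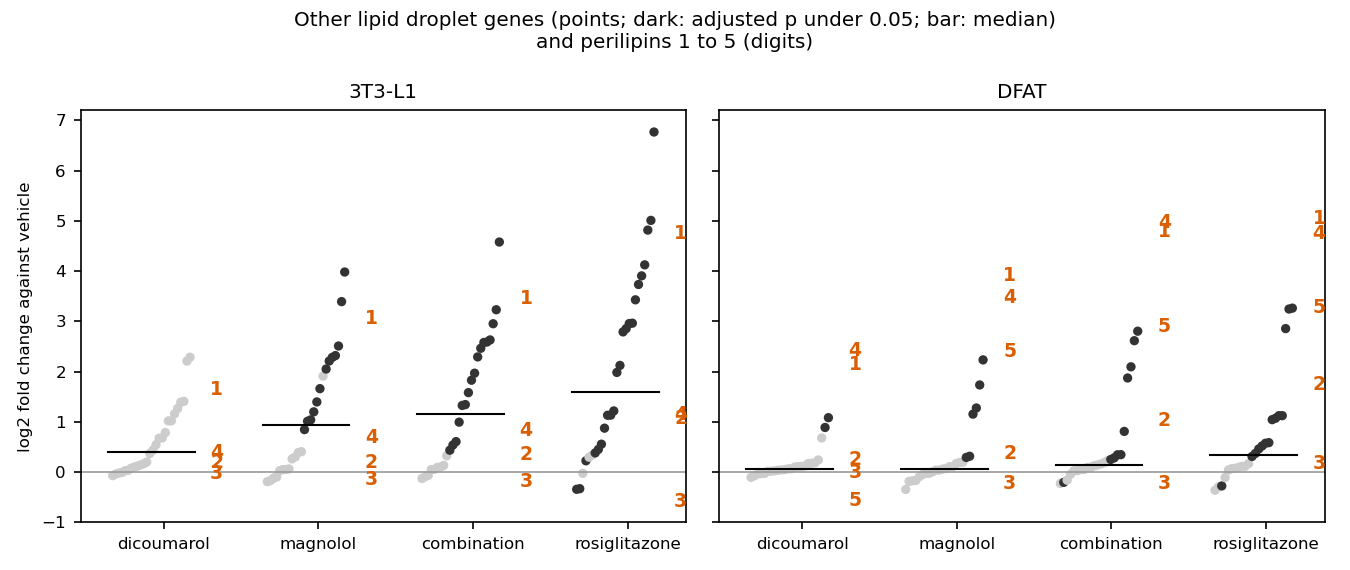
Log2 fold change against vehicle of the other lipid droplet genes (points, sorted; dark where the adjusted p is under 0.05; bar at their median) and of the tested perilipins (digits 1 to 5) in 3T3-L1 (left) and DFAT cells (right). In DFAT cells the digits 1 and 4 lie above all points, with medians of the points at 0.34 or less; in 3T3-L1 cells the points reach 6.77 with rosiglitazone and the medians 1.60.

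The genes most like each perilipin across the 15 libraries of a system are given as a description, by Pearson's r of log2(normalized count + 1) among genes with a symbol and a mean of at least 100. The libraries share 5 groups and their size factors, and r was not separated from the group differences. In 3T3-L1 cells Fam83a (r 0.995), Cidec (0.989) and Cd36 (0.988) were nearest to Plin1, and Lrig1 (0.984) and Tbc1d4 (0.981) to Plin4. Acaa2 (0.981), Mrps9 and Nifk (0.960 each) were nearest to Plin2, and Hs1bp3 (0.977) and Steap3 (0.974) to Plin3. Anxa1 (−0.969) was the most opposite to Plin1, Ninl (−0.966) to Plin2, Abraxas1 (−0.967) to Plin3 and Tmsb4x (−0.964) to Plin4. In DFAT cells CD36 (0.989), ADIPOQ (0.988) and SGK2 (0.985) were nearest to PLIN1, and ITGA7 (0.990), SLC25A34 (0.985) and LIPE (0.983) to PLIN4. ACAA1 (0.992), SCD (0.990) and ACSL1 (0.987) were nearest to PLIN2, MAP2K2 (0.947), VAT1 (0.937) and EIF6 (0.934) to PLIN3, and KLB (0.944), TNFAIP6 (0.921) and THRSP (0.917) to PLIN5. The most opposite were IL1R2 (−0.940) to PLIN1, LUM (−0.968) to PLIN2, GLT8D1 (−0.935) to PLIN3, DCN (−0.953) to PLIN4 and H2AJ (−0.904) to PLIN5. Among the perilipins themselves, perilipin 1 and perilipin 4 had an r of 0.951 in 3T3-L1 and 0.988 in DFAT libraries. Perilipin 1 and perilipin 3 had −0.746 and −0.118.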

How the data were processed

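The authors deposited 1 table for each species, whose signal values are counts per gene scaled by DESeq2 size factors, per the labels. The submitters' processing notes name bcl2fastq 2.19.1.403, STAR and DESeq2, and the build GRCm38 for all samples, the pig's included; 24070 mouse genes matched the GENCODE annotation of that build, 95.5% with the same length but 2.18% with the same start, so the build behind the coordinates stays unstated here and the end given is the listed stop less 1. From the steps between low values the depth was estimated at 22.8 to 30.7 M reads for the mouse libraries and 44.7 to 70.4 M for those of the pig. Only 81.8% to 82.9% and 89.8% to 91.0% of values up to 20 reads were whole within 0.02, so no count test was run. Genes with a mean of at least 10 entered a limma fit (version 3.58.1, R 4.3.3) of log2(value + 1). All 5 groups were in 1 model with a variance trend, and tests were two-sided with Benjamini-Hochberg adjustment over all genes. The fit was tried on simulated data with no effect of the replicate number, which cannot show how the fit does where replicates are paired. Folds understate the change of low genes. Ratios of perilipins were tested over libraries with an exact two-sided permutation test.

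The labels number replicates 1 to 3 in each group. In 3T3-L1 each of the 30 same-numbered pairs had deviations from the group means correlated above 0.1 (0.106 to 0.462), so the numbers pair them. In DFAT 16 of 30 did, every pair only among the magnolol, combination and rosiglitazone groups (0.105 to 0.345). The main fit held no term for the replicate number, so in 3T3-L1 it left the pairing out. The permutation tests of the ratios took no account of the replicate number either. Calls that the replicate block changed are given in the text. The members, the lipid droplet list, the cell markers and the motifs were chosen with earlier results of these data known. Named were all perilipins, from the droplet list the 3 largest called rises and 2 largest called falls per comparison with vehicle (mean at least 100), and the genes of highest and lowest r; 2 of these are not reported here. Promoters came from RefSeq (GRCm38.p6), where all 5 mouse genes matched with 6 starts. Alternatives were an added count of 0.1 or 5, no minimum, quantile normalization, no trend, only the compared groups, a replicate block, leaving out each library and, chosen after seeing the data, leaving out 2 rosiglitazone libraries of 3T3-L1. The upper limit given for Plin5 from its read counts covers counting error only. The intervals of log2 values are those of the limma fit and rest on the spread between libraries. Python 3.11.15 with pandas 2.3.3, numpy 2.4.6 and matplotlib 3.10.9 was used.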

Additional observations from a re-analysis of the deposited data

Results flagged for a closer look

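Perilipin 3 with rosiglitazone was the 1 of 20 pairs of gene and treatment in which every treated library lay on one side of the vehicle mean in one system and on the other side in the other. The pairs of perilipin 5 could not meet this rule: each treated 3T3-L1 group held a library at 0, which was the vehicle mean. The share of all genes that meet it was not counted. The log2 fold change was −0.58 for Plin3 in 3T3-L1 cells, which was called, and 0.17 for PLIN3 in DFAT cells, which was not. In DFAT cells the rosiglitazone libraries (981 to 1191 normalized counts) overlapped with those of vehicle (883 to 1063). The difference itself was not tested, since the tables were normalized separately.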

How the results depend on the processing

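Of 48 called perilipin results, 37 kept their direction and call under every alternative run, and of 42 uncalled ones 28 did. These totals include PLIN5, with 5 of the 48 calls. Its calls come from the fit whose minimum admitted it only through its high groups, so they lend the totals no support. The calls that were lost stand beside their results above, apart from those of a fit that left 1 rosiglitazone library. With the replicate block the number of perilipins called in 3T3-L1 cells went from 0 to 1 for dicoumarol against vehicle (0.502% of all genes called). It went from 0 to 2 for the combination against dicoumarol (3.62%) and from 0 to 1 for magnolol against dicoumarol (0.502%). For rosiglitazone against the combination it went from 3 to 4 (33.3%) and, in DFAT cells, from 2 to 3 (24.9%). In DFAT cells 1 of the 3 same-numbered pairs of vehicle and dicoumarol libraries was correlated above 0.1 (range 0.0747 to 0.193). With the block PLIN2 passed there for dicoumarol against vehicle (limma adjusted p 0.0241, with 4.52% of all genes called). In DFAT cells rosiglitazone against the combination gave 1 in place of 2 with only the compared groups fitted. The interaction gave 1 in place of 2 without the minimum (0.0278% of all genes) and without the variance trend. The share of all genes called was not counted for fits with only the compared groups, without the trend or with libraries left out. Without the 2 rosiglitazone libraries of high mitochondrial share in 3T3-L1, an alternative chosen after seeing the data, only 1 rosiglitazone library remained. The totals above count that fit among the alternatives. With 1 library in the group its calls are not given, and its log2 differences stand above. Leaving out 1 library gave 1 to 2 called perilipins for magnolol against vehicle in 3T3-L1 and, in DFAT cells, 1 to 2 for the interaction. For rosiglitazone against the combination in DFAT cells, 1 was called without combination replicate 3. PLIN4 was gained there without rosiglitazone replicate 1 (limma adjusted p 0.0196). The sign changed only when a library was left out and only for uncalled log2 values near 0: in 3T3-L1 Plin3 with dicoumarol ranged from −0.0874 to 0.0113, Plin2 for magnolol against dicoumarol from −0.0601 to 0.0840, and the interaction of Plin2 from −0.0993 to 0.0448 and of Plin3 from −0.0420 to 0.0567. In DFAT cells PLIN3 ranged from −0.0550 to 0.0788 with dicoumarol, from −0.0754 to 0.0936 for the combination against magnolol and from −0.0771 to 0.102 for the interaction. The cause of these changes was not tested. Depth limits perilipin 5: it had 0 to 3 reads per 3T3-L1 library and was not tested there, and the DFAT values rest on 149 reads in 15 libraries.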
